A study of Mus musculus with 70 samples.

Results

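BXD48 and BXD48a are related sub-strains of the BXD family, and their liver methylomes were compared across 354239 autosomal bins of 150 bp. All mice labelled with either sub-strain entered, which gave 12 of the 70 mice in the series and 354239 of its 368300 bins. The 6 BXD48 mice comprised 3 on standard chow (control diet, CD) and 3 on high-fat diet (HFD), and the 6 BXD48a mice were divided in the same way. All 12 were females, and the labels give no genotype beyond the strain. The age in their labels, which is the age at the initial weighing and not at tissue collection, ran from 30 to 223 days. The study had biobanked livers from BXD strains and F1 hybrids on CD, and from some of the strains also on HFD. It asked how methylation related to age, body weight and life span. Its strains were chosen for their range of life span, and HFD mice of this pair were added because its members appeared to respond differently to HFD. Some BXD48a, BXD65 and BXD73b mice, 4 in all, had entered HFD later than the others.

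BXD strains are recombinant inbred lines from a cross of C57BL/6J (B6) and DBA/2J (D2), so that each strain carries a fixed mosaic of B6 and D2 haplotypes. Sub-strains share most of that mosaic, and segments that were not yet fixed when the lines separated can differ between them. MBD-seq enriches DNA fragments that carry methylated CpGs, by their binding to a methyl-CpG binding domain, before sequencing. The read density of a bin therefore depends on its methylation, its number of CpGs, the copies of its DNA and how well its reads map to the B6-derived reference, and a difference between sub-strains in one bin cannot be assigned to any of these.

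Values were log2 RPKM (read density scaled for bin length and for the reads of the library, on a log2 scale), with 1 library per mouse. The libraries held 14451384 to 21655312 reads in bins, and the median autosomal bin held 29 to 44 reads. A bin with 0 reads had the value -0.41. A bin was called when the adjusted p of limma's moderated test, with diet as a covariate, was 0.05 or less, and differences are BXD48 minus BXD48a. Because a small count was added to every bin before the logarithm was taken, differences of bins with few reads are understated. Mean log2 RPKM over all autosomal bins was 3.77 ± 0.02 (SD, n = 6) in BXD48 and 3.78 ± 0.01 (SD, n = 6) in BXD48a. The difference of these means was -0.0045 (two-sided exact permutation test within diet, p = 0.645, adjusted p = 0.815 over 6 bin classes). None of the 6 classes, which included CpG islands and bins with or without variants, had an adjusted p below 0.815.

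Reference sequences are shown for some of the bins described below, chosen from those with the smallest p in a block, in a gene list or among bins with variants, and from the runs described last. They are the plus strand of GRCm38 (mm10), and capitals mark CpGs, the sites that methyl-CpG capture acts on. The first 3 had reads in every mouse of one sub-strain and in no mouse of the other, and no variant is recorded in them.
chr7:56688451-56688600: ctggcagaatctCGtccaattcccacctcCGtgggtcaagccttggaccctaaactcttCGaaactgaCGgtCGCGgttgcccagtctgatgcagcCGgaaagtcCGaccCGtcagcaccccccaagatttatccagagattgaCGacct
chr7:72672901-72673050: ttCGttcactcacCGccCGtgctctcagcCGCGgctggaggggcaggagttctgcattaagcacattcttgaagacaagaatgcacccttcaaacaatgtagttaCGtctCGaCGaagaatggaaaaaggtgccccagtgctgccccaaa
chr1:136375651-136375800: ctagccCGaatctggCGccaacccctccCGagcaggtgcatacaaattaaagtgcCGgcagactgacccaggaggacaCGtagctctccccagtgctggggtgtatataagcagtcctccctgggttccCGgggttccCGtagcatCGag

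A second set is shown because its bins lay in genes. In order, they lie in Gm12892, Gm40237, Zfp64 and Cyp4a32, outside the exons of curated transcripts. The deposited table records 1, 0, 8 and 2 variants in them.
chr4:122008201-122008350: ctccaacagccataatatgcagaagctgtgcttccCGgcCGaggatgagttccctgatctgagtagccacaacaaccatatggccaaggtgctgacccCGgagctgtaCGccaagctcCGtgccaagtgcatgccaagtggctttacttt
chr4:118548001-118548150: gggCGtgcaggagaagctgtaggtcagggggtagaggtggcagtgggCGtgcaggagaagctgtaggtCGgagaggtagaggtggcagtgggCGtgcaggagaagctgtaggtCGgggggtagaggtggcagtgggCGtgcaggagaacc
chr2:168948301-168948450: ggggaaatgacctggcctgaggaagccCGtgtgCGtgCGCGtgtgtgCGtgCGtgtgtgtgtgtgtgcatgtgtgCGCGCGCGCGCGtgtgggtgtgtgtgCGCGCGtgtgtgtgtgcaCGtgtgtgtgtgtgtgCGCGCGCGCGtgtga
chr4:115605601-115605750: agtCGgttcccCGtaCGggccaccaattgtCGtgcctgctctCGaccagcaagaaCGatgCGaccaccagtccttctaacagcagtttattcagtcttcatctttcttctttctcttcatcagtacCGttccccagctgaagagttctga

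The last set comes from the runs on chromosomes 8 and 16, where the difference was close to 1 on the log2 scale. The first of these bins is intergenic and the second overlaps an exon of Ercc4.
chr8:115357951-115358100: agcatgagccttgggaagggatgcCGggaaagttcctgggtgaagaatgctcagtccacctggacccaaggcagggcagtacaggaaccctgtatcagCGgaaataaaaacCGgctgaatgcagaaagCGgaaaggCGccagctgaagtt
chr16:13130551-13130700: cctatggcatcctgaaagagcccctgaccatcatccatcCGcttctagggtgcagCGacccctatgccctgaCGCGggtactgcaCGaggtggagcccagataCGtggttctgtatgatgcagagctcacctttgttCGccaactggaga

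Of the 354239 autosomal bins, 3172 (0.895%) differed between BXD48 and BXD48a. Of these, 1560 (0.44% of bins tested) were higher in BXD48 and 1612 (0.455%) were lower. The absolute difference of called bins had a median of 1.498 and ran from 0.41 to 5.81, with a median standard error of 0.197 (n = 6 per sub-strain), against a median absolute difference of 0.103 over all bins tested. In 2780 of the 3172 called bins (87.6%) the 12 values did not overlap between sub-strains, whereas 3470 (0.98%) of all tested bins were separated in this way. The unadjusted p was 0.05 or less in 15264 bins, and 2698 bins had an adjusted p of 0.01 or less.

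The deposited table counts, for each bin, the SNPs and small insertions or deletions that segregate in the BXD family. Such variants were recorded in 1367 of the 3172 called bins (43.1%, exact binomial interval 41.4 to 44.8%, which treats bins as independent although neighbouring bins are not) and in 17.4% of the bins tested. A variant was recorded in 49.3% of the bins lower in BXD48 and in 36.7% of those higher. The share of bins called was 0.617% of bins with no variant, 1.43% with 1, 2.38% with 2, 3.43% with 3 to 4 and 4.56% with 5 or more. The called bins that lacked a recorded variant were the larger group, at 1805, and their median absolute difference of 2.06 exceeded the 1.24 of those that held one. Among bins with reads in every mouse this order turned, as 50.7% of the 2432 called bins held a variant. 

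Called bins were concentrated on a few chromosomes. Chromosome 7 alone held 1314 (41.4%), which were 6.06% of its tested bins, and 900 of them were higher in BXD48. Chromosome 4 held 364, of which 345 were lower in BXD48, and chromosome 1 held 246, of which 222 were lower. Chromosomes 2, 8 and 19 contributed 276, 266 and 165 calls. At the other end, chromosome 18 held 3 called bins, chromosome 9 held 9, chromosome 15 held 11, chromosome 12 held 12 and chromosome 10 held 16. The direction thus differed by chromosome although the total was nearly balanced.

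**Figure D1:**
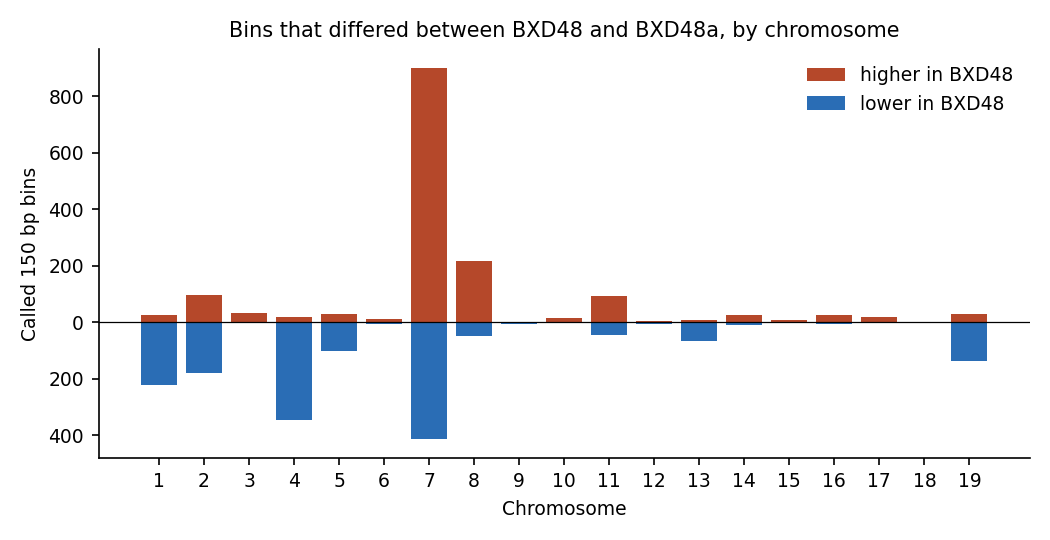
Called bins per autosome (x axis, chromosome; y axis, number of 150 bp bins), with bins higher in BXD48 above the line and bins lower in BXD48 below it. Chromosome 7 has 1314 calls, 900 of them higher, while 345 of the 364 calls on chromosome 4 are lower.

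Within chromosomes the calls were clustered. Of 1219 windows of 2 Mb, 1024 (84.0%) contained no call, and the 51 windows with at least 20 calls held 2625 (82.8%) of all calls and 5.13% of tested bins. A tested bin that lay 150 to 1000 bases from a called bin was itself called in 73.5% of cases. This share was 49.8% at 1 to 10 kb, 14.4% at 100 to 1000 kb and still 4.81% at 5 to 10 Mb, against 0.895% over all bins. Neighbouring calls also shared their direction, in 99.8% of pairs within 1000 bases, in 94.96% of pairs 100 to 1000 kb apart and in 90.9% of pairs 5 to 10 Mb apart. At 10 to 20 Mb this share was 50.8%, so that the agreement in direction did not extend to that distance. These shares describe pairs of bins from the same 12 mice, and no test was made.

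**Figure D2:**
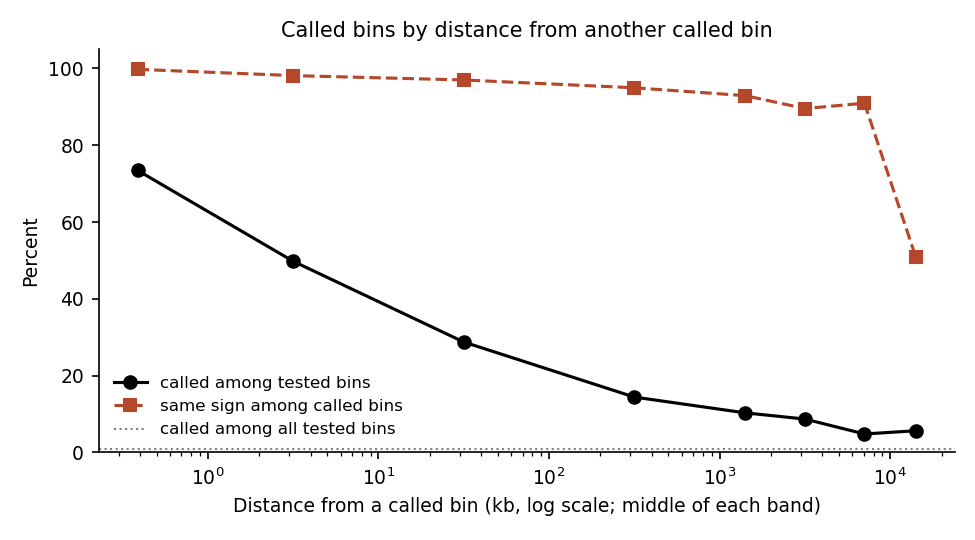
Percent of tested bins that were called (black) and percent of called bins with the same sign (red) by distance from another called bin (x axis, kb, log scale; y axis, percent), with the share called among all tested bins as a dotted line. The share called falls from 73.5% to 5.65% and the shared sign from 99.8% to 50.8%.

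To describe these segments, called bins with variants were chained where neighbours lay at most 2 Mb apart, and chains of at least 10 such bins were termed blocks. There were 22 blocks on 9 chromosomes (1, 2, 3, 4, 5, 7, 8, 11 and 19), numbered here in genome order. They covered 93.3 Mb in all and were from 0.00345 to 19.4 Mb long. The blocks held 4.68% of tested bins but 2494 (78.6%) of called bins. Since the chains were built from called bins with variants, their 93.3% share of those bins follows from the rule. Called bins without variants were not used to draw the blocks, and 1219 of 1805 (67.5%) lay inside them. Inside blocks, 27.7% of bins with variants and 10.2% of bins without were called, whereas outside the shares were 0.162% and 0.209%.

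Most blocks ran in one direction, and in 18 of the 22 at least 90% of calls had the same sign. The block with most calls was block 11, chr7:55598401-68648850, where 607 of 1659 tested bins were called and 594 of these were higher in BXD48, with a median difference of 2.63. In that block bins with and without variants were called at similar rates, 37.4% and 36.0%. Block 10, chr7:40336951-46435200, lay on the same chromosome and had the opposite direction, with 298 of 312 calls lower in BXD48. The longest, block 7, chr4:106675501-126070200, had 281 of 288 calls lower, with a median difference of -2.77. Blocks 12, 13 and 14 on chromosome 7 were higher in BXD48 in 121 of 122, 59 of 62 and 67 of 67 calls, and block 15, chr7:117785701-118904550, was lower in all 80. Along chromosome 7, therefore, the direction changed from lower to higher and back to lower.

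Block 4, chr2:161927701-169941150, was divided within itself. It held 118 lower and 85 higher calls, and 114 of the lower ones started below 167 Mb while 3 of the higher ones did. The lower calls had a median difference of -1.37 and the higher ones of 1.02. The other strains also differed between its parts: among the called bins with variants, BXD40 was nearer BXD48 at 93.2% of the lower and at 3.08% of the higher ones, and for BXD79 these shares were 18.6% and 96.9%. The remaining blocks with many calls were block 1, chr1:131263951-138950700 (162 of 170 lower), block 22, chr19:44254501-47952600 (134 of 134 lower), and block 20, chr11:68988001-70440450 (67 of 79 higher).

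For each of the 10 blocks with most calls, the bin with the smallest p was taken among those whose 12 values did not overlap. In 4 of these 10 bins all mice of one sub-strain had 0 reads. In block 11, the intergenic bin chr7:56688451-56688600 had log2 RPKM of 4.41, 4.55 and 4.36 in BXD48 on CD, and of 4.64, 4.62 and 4.46 on HFD. All 6 BXD48a mice had 0 reads there, against 41 to 78 in BXD48, so that BXD48 was at least 17.8-fold higher against a floor of 3 reads per library (fitted difference 4.91, SE 0.18, limma adjusted p = 1.2e-14). The diets did not separate within BXD48, and the sub-strains did not overlap. In block 12, chr7:72672901-72673050, in the pseudogene Kansl2-ps and in a CpG island, had 33 to 84 reads in BXD48 and 0 in every BXD48a mouse (at least 16.5-fold, limma adjusted p = 5.8e-14).

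The converse was found on chromosomes 1 and 19. In block 1, the intergenic bin chr1:136375651-136375800 had log2 RPKM of 4.49, 4.10 and 4.38 in BXD48a on CD, and of 4.14, 4.68 and 4.16 on HFD, while all 6 BXD48 mice had 0 reads. BXD48 was at least 17.9-fold lower (fitted difference -4.73, SE 0.19, limma adjusted p = 5.8e-14). In block 22, chr19:47163301-47163450 had 21 to 43 reads in BXD48a and 0 in BXD48, at least 10.9-fold lower. The groups did not overlap in either bin.

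Some leading bins had reads in both sub-strains. In block 7, chr4:118548001-118548150, in the uncharacterised gene Gm40237, had 73 to 132 reads in BXD48 and 1995 to 3939 in BXD48a. Log2 RPKM was 5.16 ± 0.36 (SD, n = 6) in BXD48 and 10.16 ± 0.41 (SD, n = 6) in BXD48a, a difference of -5.00 (SE 0.14, limma adjusted p = 4.6e-16). No variant is recorded in it, and the BXD48a level was far above the 29 to 44 reads of a median bin. In block 20, chr11:70136101-70136250, in an intron of Mgl2, a C-type lectin of macrophages, had 26 to 56 reads in BXD48 and 0 to 2 in BXD48a (difference 3.48, SE 0.22, limma adjusted p = 5.8e-11).

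**Figure D3:**
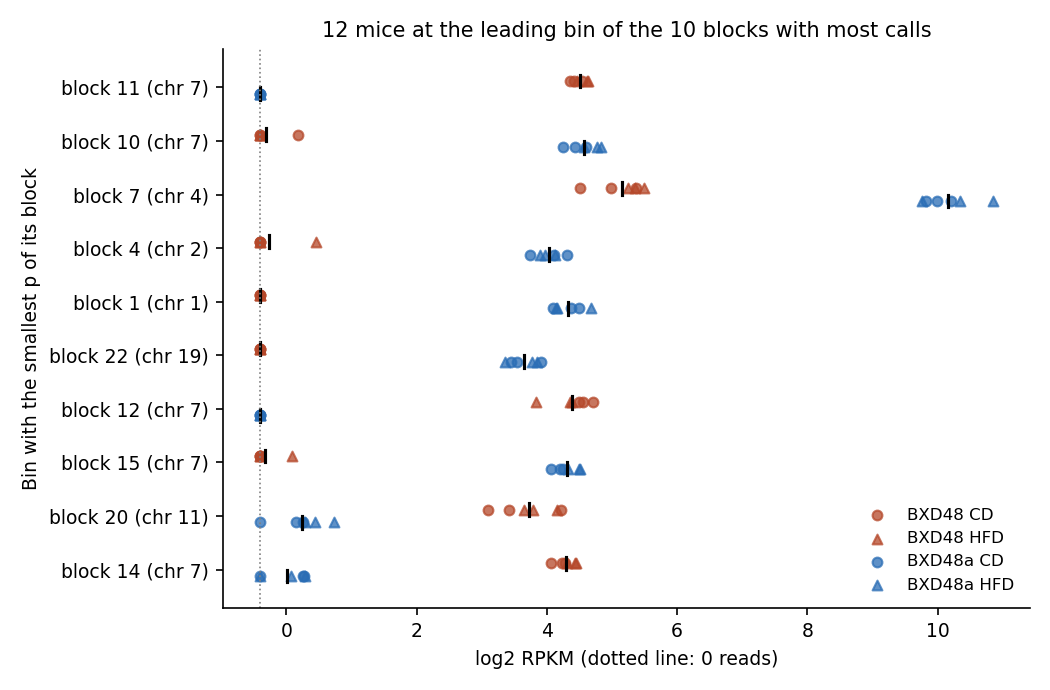
Log2 RPKM (x axis) of each of the 12 mice at the bin with the smallest p in each of the 10 blocks with most calls (y axis), with BXD48 in red, BXD48a in blue, circles for CD, triangles for HFD and black ticks at the mean of 6 mice. Bins were chosen among those in which the sub-strains did not overlap, and in 9 of the 10 the lower sub-strain lies at or near the dotted line that marks 0 reads.

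Among called bins with variants, those with the smallest p had few or no reads in one sub-strain. At chr4:122008201-122008350, close to the longest empty run and with 1 variant, reads were 78 to 184 in BXD48a, and 0 in 5 BXD48 mice and 1 in the sixth (difference -5.78, SE 0.18, limma adjusted p = 7.9e-16). At chr5:15011251-15011400, with 6 variants, reads were 74 to 116 in BXD48a and 0 to 2 in BXD48 (difference -5.27). In an intron of Oca2, a melanosomal transporter gene, chr7:56292901-56293050 held 3 variants, and reads were 32 to 62 in BXD48 and 0 to 2 in BXD48a (difference 4.31).

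Several of the strongest calls without variants outside blocks lay directly beside one. The bins chr7:82090351-82090500 and chr4:126070201-126070350 adjoin the ends of blocks 13 and 7, and chr7:96068551-96068700 adjoins the start of block 14. Their differences were 3.21, -4.08 and 4.12, with the direction of the adjoining block. Farther from any block edge, chr7:78899551-78899700, in an intron of Aen, an apoptosis-enhancing nuclease gene, had 40 to 87 reads in BXD48 and 2 to 7 in BXD48a (difference 3.42, SE 0.22, limma adjusted p = 4.2e-11). The edges of the blocks were set by bins with variants, so calls without variants can lie just past them.

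Bins empty in one sub-strain were examined as a group. In 47 bins all 6 BXD48 mice had 0 reads while every BXD48a mouse had at least 5, and 46 of these bins lay in blocks. The converse held in 22 bins, 21 of them in blocks. A variant was recorded in 8 of the 47 and in 1 of the 22, against 17.4% of all tested bins. Adjacent empty bins formed 5 runs of 3 or more. The longest was 600 bases, chr4:122008501-122009100, where the BXD48a mice had means of 79 to 162 reads per bin and BXD48 was at least 37.4-fold lower. In that run the mean RPKM was 22.5 in B6D2F1, 22.7 in D2B6F1 and 40.9 in BXD48a, and was at most 0.218 in the other BXD strains. An empty bin was therefore not private to BXD48 there, as 8 other strains were also at or near 0.

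The mice that had not entered the comparison were placed on a scale for each called bin, where 0 was the mean RPKM of BXD48a and 1 that of BXD48. At called bins with variants inside blocks, the reciprocal F1 hybrids of B6 and D2 had median positions of 0.51 (B6D2F1, 5 mice) and 0.50 (D2B6F1, 4 mice). Each of these F1 groups, and BXD102, included 1 male. At called bins in blocks without variants these were 0.50 and 0.49. By block, the F1 medians ran from 0.26 to 0.64. Thus the F1 hybrids, which carry a B6 and a D2 copy of every autosome, lay between the sub-strains in all 22 blocks.

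The inbred BXD strains lay near either end. Of 176 combinations of a strain and a block, 85 had at least 90% of bins nearer BXD48 and 71 had at least 90% nearer BXD48a. In block 7, all 8 other BXD strains had median positions near 1. In block 10, BXD65, BXD65b, BXD73 and BXD73b were near BXD48, and BXD9, BXD40, BXD79 and BXD102 near BXD48a.

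The related sub-strains BXD73 and BXD73b differed from each other in the same segments of chromosome 7. In blocks 11, 12 and 13, BXD73 was nearer BXD48 at 94.3% of bins in the first and at all bins in the other two, and BXD73b at 3.239%, 0% and 6.98%. In block 10 both were near BXD48, at 98.9% and 99.4%. BXD65 and BXD65b were alike in blocks 11 to 13, at 2.02% and 6.07% in block 11. No test was made of these shares, since bins of one block are not replicates.

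**Figure D4:**
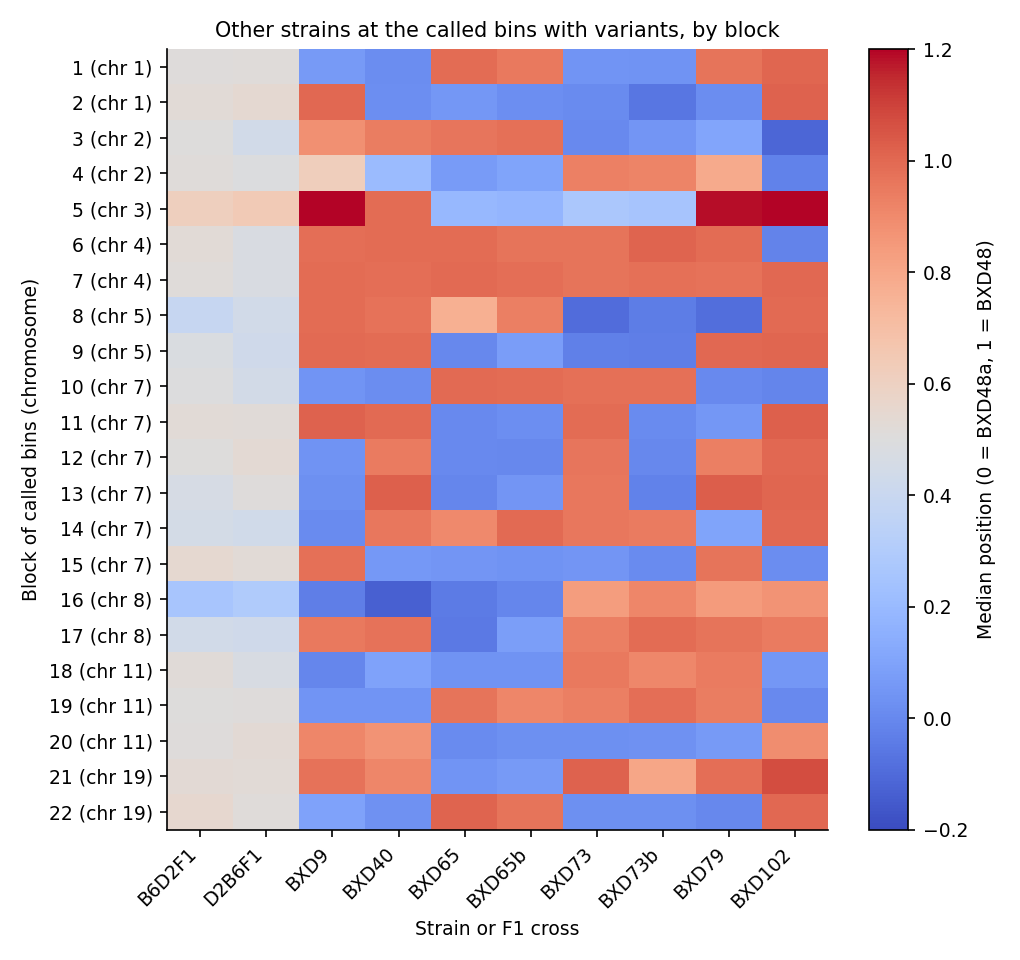
Median position of the other strains and F1 hybrids (x axis) at the called bins with variants of each block (y axis, block and chromosome), on a scale where 0 (blue) is BXD48a and 1 (red) is BXD48; medians beyond -0.2 or 1.2 are drawn at those limits. Both F1 columns are pale, with medians from 0.26 to 0.64, and most cells of the BXD strains are blue or red.

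The difference was then read in each diet with mice of that diet alone. On CD (3 against 3), 1824 bins (0.515%) were called, and on HFD (3 against 3) 2520 (0.711%), and no mouse was shared. Of the bins called on CD, 1801 (98.7%) had the same sign on HFD and 1607 (88.1%) were also called there. Of those called on HFD, 2397 (95.1%) had the same sign on CD and 1607 (63.8%) were called. No bin was called in both diets with opposite signs. The median absolute difference of the bins called on CD was 2.80, and on HFD the same bins had a median of 2.73 in that direction.

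Over all 354239 bins, called or not, 41.2% had the same sign in both diets. Bins called on HFD inside blocks had the same sign on CD in 99.2% of cases, and those outside in 81.9%. Each mouse was also placed relative to the midpoint of the sub-strains, using bins called in the diet it did not belong to. In 251 of 252 combinations of a mouse and a block it lay on the side of its own sub-strain, the exception being in block 16. The blocks themselves had been drawn from the fit over all 12 mice, so these shares inside blocks are a description and no independent check.

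The sub-strain by diet interaction was called in 0 bins (0.0%) by limma, with 41003 bins at an unadjusted p of 0.05 or less and a smallest adjusted p of 0.203. This count was not stable. It was 1411 with limma-voom on the recovered reads and 11254 without the third BXD48 mouse on CD (BXD48_CD replicate 3), and the CD count rose from 1824 to 7309 without the same mouse. That library had a slope of log2 RPKM on the number of CpGs per bin of 0.0044, against 0.0509 and 0.0619 in the other BXD48 mice on CD, while over all 12 mice slopes ran from 0.0014 to 0.0619. With the slope added as a covariate over all 12 mice, the interaction was called in 0 bins, with 20145 at an unadjusted p of 0.05 or less. The CD and HFD counts were then 1764 and 1998. The part of the slope in the counts of 1411, 11254 and 7309 was not tested. Diet itself (HFD minus CD) was called in 0 bins (0.0%) over the 12 mice by limma and in 0 by limma-voom, and 13572 had an unadjusted p of 0.05 or less. Within BXD48a, 6 bins were called, all lower on HFD, with 37751 at an unadjusted p of 0.05 or less. Within BXD48 0 were called, with 17124 at an unadjusted p of 0.05 or less.

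At least 1 called bin overlapped 408 of the 22372 genes with a tested bin, and 88 genes had 5 or more. In 17 genes calls went both ways. Genes were chosen for mention by their number of called bins, after the values were seen. In block 11, the imprinted Prader-Willi region gave the largest set inside a block: Snhg14, the long host transcript of small nucleolar RNAs, had 72 of 94 bins called (65 higher, 7 lower), and Snrpn, which encodes a spliceosomal protein, had 23 of 29 called, all higher with a median difference of 2.17. These genes overlap, and 1 bin can count for both. All called Snrpn bins lay at chr7:60155551-60415800, inside the called stretch of Snhg14 (chr7:59384401-60415800). The bin chr7:60155851-60156000, with 1 variant, overlapped an exon and lay in Snhg14, Snrpn and Gm7367. Its nearest transcription start, that of Snurf, was 150726 bases away. BXD48 mice had 29 to 64 reads there, and 5 BXD48a mice had 0 and the sixth had 1 (difference 4.24, SE 0.20, limma adjusted p = 4.3e-13).

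Other genes of block 11 were also higher in BXD48. Gabrg3, a subunit of the GABA-A receptor, had 33 of 66 bins called with a median of 2.03. Otud7a, a deubiquitinase, had 19 of 32 with a median of 3.36. Adamts17, a secreted metalloprotease, had 23 of 70, and Fan1, a nuclease of DNA crosslink repair, had 14 of 27, each of the 14 with variants. In block 14, Tenm4, a teneurin adhesion protein, had 38 of 141 bins called, all higher.

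Genes that were lower in BXD48 came from other blocks. Ctse, which encodes the aspartic protease cathepsin E and lies in block 1, had 27 of 27 tested bins called, all lower with a median of -3.86, and 1 of them held a variant. Vps35l, part of an endosomal recycling complex, had 33 of 74 lower, 32 with variants, and Nomo1, an endoplasmic reticulum membrane protein, had 28 of 88 lower. Ptprt, a receptor tyrosine phosphatase, had 21 of 70 lower in the first part of block 4. Alox15, a lipoxygenase, had 11 lower and 1 higher call of 21 tested bins in block 20, a block in which 67 of 79 calls were higher.

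Gene lists for liver function and methylation were read in the same way, against 0.895% of all bins called. The DNA methylation machinery (17 genes, including the Dnmt and Tet enzymes) had 0 of 318 bins called by limma or limma-voom, with 7 at an unadjusted p of 0.05 or less and a median difference of -0.01. Lipid and bile acid genes (20 genes) had 0 of 155 bins called by either, with 8 at an unadjusted p of 0.05 or less. Imprinted genes had 23 of 678 bins called, and all 23 lay in Snrpn. Snhg14, of the same imprinted region, was not in this list. Snrpn had no bin assigned to its own transcription start. Near the starts of 21 other imprinted genes, within 2 kb, 0 of 137 bins were called by limma or limma-voom (4 at an unadjusted p of 0.05 or less), and H19, Igf2r and Peg3 had median differences of -0.23, 0.04 and 0.18 there.

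Growth genes had 4 of 340 bins called, and these were the 4 of Igf1r, the receptor of insulin-like growth factor 1, with 3 higher and 1 lower and a median of 0.75. The lower one, chr7:68118451-68118600, is intronic and had log2 RPKM of 2.44 ± 0.51 in BXD48 and 3.69 ± 0.20 in BXD48a (SD, n = 6; difference -1.24, SE 0.21, limma adjusted p = 0.00086). Its difference was -1.61 on CD (limma adjusted p = 0.011) and -0.87 on HFD (adjusted p = 0.41). Xenobiotic genes had 8 of 297 bins called, 7 of them lower. All 5 tested bins of Cyp4a32, of the cytochrome P450 family that hydroxylates fatty acids, were lower with a median of -2.54. At chr4:115605601-115605750, BXD48 had 0 to 3 reads and BXD48a 23 to 58 (difference -3.56, SE 0.23, limma adjusted p = 4.6e-11). Cyp4a genes are near-identical copies, so reads may be shared among them. Repeats made up 100% of the bases of the bin chr4:115605601-115605750, where reads of similar copies can also be exchanged.

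Zinc finger genes had 33 of 3283 bins called, in 4 of 247 genes, and all 33 lay in blocks. Zfp936 had 17 of 18 bins lower with a median of -1.11, and Zfp64 had 12 of 61 higher with a median of 1.52. At chr2:168948301-168948450 in Zfp64, BXD48 had 29 to 51 reads and BXD48a 0 or 1 (difference 3.86, SE 0.21, limma adjusted p = 2.2e-12). Bins in marker genes of Kupffer (15 bins), stellate (66), cholangiocyte (23), endothelial (41) and lymphocyte (5) cells contained 0 calls by limma or limma-voom, with 5 of the 150 at an unadjusted p of 0.05 or less. No hepatocyte marker had a tested bin, so the label of liver was not checked from these genes.

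Called bins differed from tested bins in position and sequence. Exons held 7.85% of called and 24.0% of tested bins, promoters 1.48% and 2.01%, introns 43.8% and 38.1%, and intergenic sequence 46.9% and 36.0%. CpG islands held 12.7% of called and 6.30% of tested bins. Repeats made up 55.7% of the bases of called bins and 31.9% of those tested. Among bins without variants these shares were 69.2% of called and 32.4% of tested bases, and 37.8% in called bins with variants. In repeats, reads of similar copies can be exchanged and variants can be missed, and the part of either in the calls was not tested.

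Outside the blocks, 678 bins were called. Runs of at least 10 calls with gaps of at most 50 kb, a rule set after the values were seen, took up 316 of them in 7 runs. The largest was chr8:115186501-115539900, a stretch of 353.4 kb in which 212 of 244 tested bins were called, all of them higher in BXD48, and all 244 had a positive difference. The run included 147 called bins in Wwox, an oxidoreductase gene at a common fragile site, and 12 of its 244 bins held variants. The median difference was 0.90, a ratio of 1.87 on the RPKM scale, with quartiles of 0.796 and 0.997. In the 120 tested bins at its sides the median was -0.02.

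Across this run, the median log2 RPKM was 4.22, 4.19 and 4.53 in BXD48 on CD, and 4.55, 4.26 and 4.27 on HFD. In BXD48a it was 3.59, 3.67 and 3.48 on CD, and 3.20, 3.38 and 3.48 on HFD. The highest of the 63 other mice that were read, BXD48a included, had 3.71, so that each BXD48 mouse lay above all of these. The F1 hybrids, with medians of 3.39 and 3.30, were among the lower group here and not between the sub-strains, unlike in the blocks.

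The second run of this kind was chr16:13099501-13132950, 33.5 kb long. Of its 29 tested bins, 24 were called, all of them higher in BXD48, and all 29 had a positive difference, with a median of 0.91 (1.88-fold) and no variant. Of the called bins, 19 lay in Ercc4, which encodes an endonuclease subunit of nucleotide excision repair, and 13 of these overlapped exons. The BXD48 mice ran from 4.18 to 4.51 and the 63 other mice that were read, BXD48a included, were at 3.71 or below. At the exonic bin chr16:13130551-13130700, reads were 65 to 108 in BXD48 and 21 to 44 in BXD48a (difference 1.14, SE 0.14, limma adjusted p = 5.3e-06). In the 120 bins beside this run the median was -0.01.

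**Figure D5:**
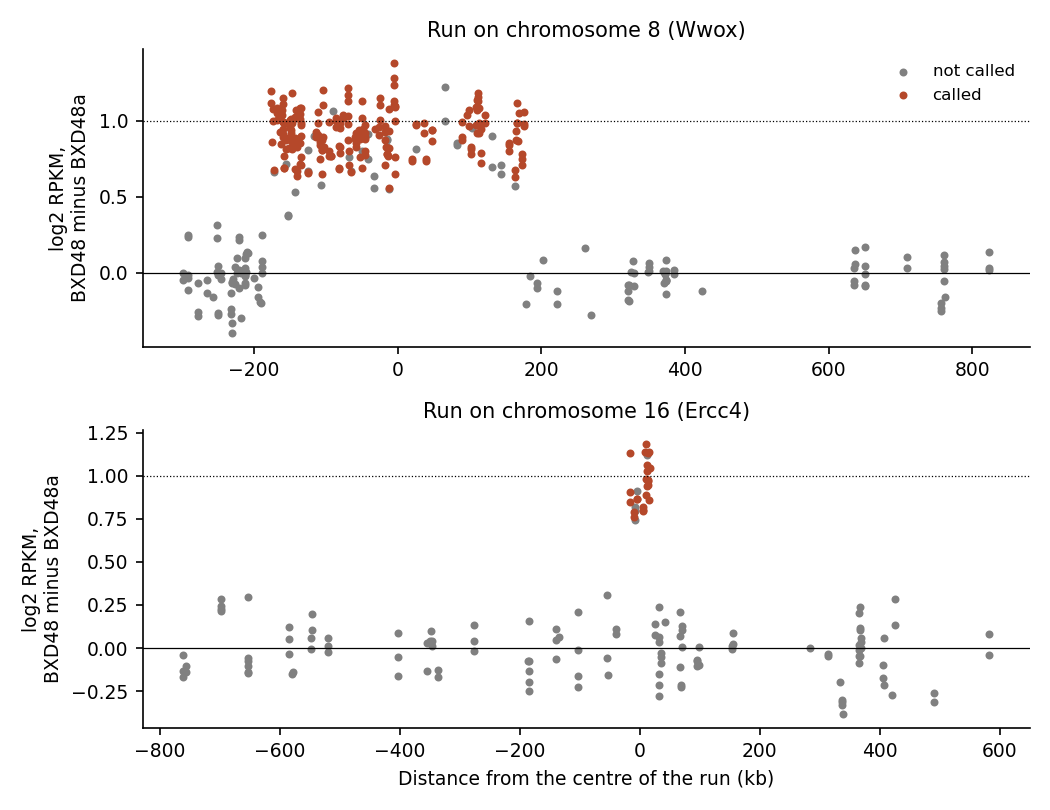
Difference in log2 RPKM, BXD48 minus BXD48a (y axis), of each tested bin by its distance from the centre of the run (x axis, kb), for the runs on chromosome 8 and chromosome 16, with called bins in red, a line at 0 and a dotted line at 1. The difference steps from near 0 to a median of 0.90 and 0.91 and back.

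The other 5 runs varied among the remaining strains too. The run chr7:30690751-30695250 was lower in BXD48 in 14 of 14 bins with a median of -3.16, and BXD73b was also low there, at 0.38 against 3.12 in BXD73. The run chr13:32941801-32954850 was lower in 13 of 13 bins with a median of -3.28, and chr13:12825901-12932400 in 30 of 60 with a median of -0.61. The runs chr11:14569351-14571000 and chr17:33047701-33051450 were higher, in 10 of 11 and 13 of 16 bins. Blocks and runs together held 88.6% of called bins. The other 362 (11.4%) were scattered over 19 chromosomes, 21.8% of them with variants, and their median absolute difference was 1.04.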

How the data were processed

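MBD-seq was performed on liver DNA of 70 mice, and the 12 BXD48 and BXD48a mice are reported here. Per the study's methods, alignment to mm10 (GRCm38) used Bowtie2 2.3.4.3, with FastQC 0.11.8 and SAMtools 1.9 for quality control. Duplicates and poorly mapped reads were dropped, and MEDIPS gave counts in 150 bp bins. The authors removed bins without CpGs, with low counts or on chromosome Y, and deposited log2 RPKM values computed in edgeR, with each bin's number of CpGs (CF) and variants. Whole reads were recovered from every value (within 0.05 of a whole number, with an inferred prior count of 2).

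Bins were fitted with limma 3.58.1 in R 4.3.3 (lmFit, eBayes with trend), with sub-strain and diet as terms and Benjamini-Hochberg adjustment over autosomal bins. Diets were also fitted alone, and an interaction was fitted. The script was tested on simulated data. Strains came from the labels. Mice are separate animals, and intervals on shares and floors of 3 reads cover counting error only. Over 20000 bins, squared differences in reads between same-group mice were at least 1.14 times those of counting noise alone (12 pairs). Between mice of different groups the lowest ratio was 1.06 (54 pairs), so this ratio did not separate same-group pairs from others. Every pair exceeded counting noise, and no library was treated as a duplicate. Genes, exons and promoters were taken from RefSeq (GRCm38.p6). Exons were those of curated transcripts, and other bins in a gene or pseudogene, unless in a promoter, were counted as introns. Alternatives were another prior count, filters on low reads, centring, variance models, covariates, thresholds, sample sets and leaving out each mouse.

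The members and lists were chosen with earlier results of these data known. Bins named were, where the 12 values did not overlap, those with the smallest p in each of the 10 blocks with most calls, in each direction with variants (5), in each direction without variants outside blocks (5), and in each gene list. One mouse of BXD65 on HFD that the study left out was not used in strain positions, which left 69 mice. Batches of capture or sequencing are not given in the sources used here.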

Additional observations from a re-analysis of the deposited data

Results flagged for a closer look

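In 72 groups of 6 mice (60 at named bins where not all 6 had 0 reads, and 12 for the mean levels of the 6 bin classes), 13, all at named bins, held a mouse whose gap to the nearest other exceeded the critical value of Dixon's test. Chance flags about 1 in 20 groups. In 12 of these groups the ratio was 1, because 5 mice had 0 reads and 1 mouse had 1 or 2. They were the BXD48 mice at chr7:42891601-42891750, chr2:166530601-166530750, chr7:118307551-118307700, chr4:122008201-122008350, chr4:122022901-122023050, chr4:118603201-118603350, chr4:126476401-126476550 and chr4:126476851-126477000. They were also the BXD48a mice at chr7:63272251-63272400, chr7:60155851-60156000, chr7:56292901-56293050 and chr7:78147301-78147450. In the last group, at chr19:32877901-32878050, the ratio was 0.715, and the first BXD48a mouse on HFD had 2 reads where the other 5 had 1 each. In each of these bins the other sub-strain had at least 21 reads in every mouse, so the separation of the sub-strains did not rest on the mouse that stood apart.

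Chromosome X was not part of the comparison. A separate fit of the same model took the bins of chromosome X and of mitochondrial DNA, with p adjusted over those bins alone. In it, 53 of the 13986 bins of chromosome X (0.379%) were called, 46 higher and 7 lower in BXD48, and 10 of them held variants. The level in this fit has no control samples to be set against.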

How the results depend on the processing

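The number of called bins was 2855 to 3127 when each mouse was left out in turn, and the share of them with variants was 42.0% to 43.6%. Among bins without variants alone, 1771 were called. The share with variants was 50.7% in bins without a mouse at 0 reads, 46.5% in bins with a mean of 20 or more reads and 41.2% at an adjusted p of 0.01. Under the other alternatives run on all mice or bins, from 2432 bins (no mouse at 0 reads) to 3812 (CpG slope added) were called, and under each of the alternatives 0 bins called in both had opposite signs. All 776 values of the 33 named bins under the alternatives kept their direction and their call, and 49 had no value because the bin was filtered out.

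There were 21 to 23 blocks when a mouse was left out, and 14 when at least 20 bins were required. The CD count was 2926 with limma-voom and 1415 to 7309 without 1 mouse, the HFD count 1949 to 2455, and the diet count 0 to 0. The interaction count was 2 with median-centred mice, 1411 with limma-voom and 0 to 11254 without 1 mouse, with the highest value without BXD48_CD replicate 3, and the cause was not tested. With the CpG slope added, the interaction count was 0, the CD count 1764 and the HFD count 1998.

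Leaving out 1 mouse, the differences of mean log2 RPKM ranged from 0.0164 to 0.0829 in CpG islands, -0.0213 to -0.0026 in genic bins, -0.0337 to -0.00536 in bins with variants, -0.0107 to 0.00068 over all autosomal bins, -0.00366 to 0.0119 in intergenic bins and -0.00586 to 0.00195 in bins without variants. The last 3 changed sign: 0.00068 (exact permutation p = 0.945) and 0.00195 (p = 0.75) without BXD48_CD replicate 2, and -0.00366 (p = 0.68) without BXD48a_HFD replicate 1.

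Quasi-likelihood count models were planned but not run. The deposited unit is log2, and limma-voom on recovered reads was run in their place. Limma-voom on recovered reads and, for the diet, interaction and single-diet fits, the CpG slope were chosen after seeing the data. The age added as a covariate was the age at tissue collection from the study's list of mice. No paired analysis was possible because the labels number no replicates. With 29 to 44 reads in a median bin, differences below 0.41 were not called.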

Other observations

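Of the 53 called bins on chromosome X, 31 lay at chrX:113910601-117087900. All 31 were higher in BXD48, with a median difference of 3.17 (0.822 to 4.296), and 3 held variants. Between 113 and 118 Mb these were 6.57% of 472 tested bins. On the scale where 0 is BXD48a and 1 is BXD48, read in female mice only, the F1 hybrids had median positions of 0.46 (B6D2F1, 4 mice) and 0.56 (D2B6F1, 3 mice) at these bins. BXD9 was near BXD48 at 0.97, and the other 7 BXD strains were near BXD48a, at 0.00362 to 0.03. A further 14 called bins lay beyond 169 Mb.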
